A study of Mus musculus with 5 samples.

Results

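Kinesins are ATP-driven motor proteins that move along microtubules or shorten their ends. All probes whose gene symbol begins with Kif followed by a digit or the letter c were taken as kinesin genes, whatever their level. This gave 50 probes for 40 genes, out of 20377 named probes for 17742 genes on the arrays. By the known roles of their proteins, 13 genes were placed among the mitotic kinesins, 17 among the transport kinesins, 6 among kinesins of the cilium and its signalling, and 4 in none of these classes. Each gene was read from its probe with the highest level, and 10 of the 40 genes had a second probe.

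Single-colour arrays measured RNA from mouse embryonic stem cells (ESCs) and from cells differentiated from them towards heart muscle, with 1 array in each of 5 groups. The groups were undifferentiated ESCs of control genotype at day 0, linc1405 knockdown and control mesoderm cells at day 4, and linc1405 knockdown and control cardiomyocytes at day 10. Linc1405 is a long non-coding RNA, and the knockdown samples are titled 1405KIpA, a name whose meaning the labels do not give. The labels do not say how the knockdown was made or whether that line is 1 clone. Its level was not analysed here, so the knockdown itself was not checked. The labels' protocols describe the ESC line as 46C and place the ESCs on feeder cells in serum with leukaemia inhibitory factor. They place the day 4 cells in serum-free medium with Bmp4, Activin A and VEGF, and the day 10 cells in medium with bFGF, VEGF and FGF10. No knockdown ESC array was part of the comparison, so the knockdown line was followed from day 4 on.

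With a single array per group no spread between cultures could be measured, no test was run, and each difference describes a pair of arrays. The number of arrays limits the precision. Levels are quantile-normalized log2 intensities with a floor of 6.64 (an intensity of 100), and they are compared between arrays for the same probe, never between genes. A difference of at least 1 on this scale is a 2-fold difference. As a measure of probe error alone, the between-probe SD of a log2 difference was 0.24 and 0.30 for knockdown minus control at day 4 and day 10. It was 0.62 for control day 4 minus ESCs, 0.76 for control day 10 minus day 4 and 0.72 for knockdown day 10 minus day 4. The labelled cell types were checked against marker genes. The summed normalized intensity of 5 measured ESC markers was 312147 in ESCs and 3131 to 5539 on the other 4 arrays. Among them Pou5f1 differed least, at 12.20 in ESCs and 10.91 to 11.53 on the other 4 arrays. The summed intensity of 6 early mesoderm markers was 63355 in knockdown and 106483 in control cells at day 4, against 7175 in ESCs. Of these 6, 5 were at least 2-fold higher in control day 4 cells than in ESCs, against 9.49% of all named genes. Eomes was not, at 12.15 in ESCs and 12.01 in control day 4 cells. The summed intensity of 6 cardiomyocyte markers was 213709 in knockdown and 416948 in control cells at day 10. The day 10 cultures also held markers of other cells: 5 epicardial markers summed to 126797 in knockdown and 34702 in control cells, and 6 liver-type endoderm markers to 21277 in knockdown and 175599 in control cells. In such mixed cultures, fewer cells of a type and less RNA per cell cannot be told apart.

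Mitotic kinesins build the spindle, move chromosomes and complete cell division, and their transcripts accumulate towards mitosis in dividing cells. Most transport kinesins carry vesicles, mitochondria and other cargo towards microtubule plus ends. The class is best known from axons, although several members are used in every cell. Kifc2 and Kifc3, also placed in it, are minus-end motors. Kinesin-2 motors also carry proteins into the primary cilium, where Kif7 acts in Hedgehog signalling, a pathway that patterns mesoderm. Many promoters of mitotic genes carry a cell cycle genes homology region (CHR), whose core is TTTGAA, and CCAAT boxes bound by the factor NF-Y, and the MuvB complexes that bind the CHR repress these genes in resting cells and activate them late in the cycle.

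Promoter sequences are shown because the CHR core was found more often in mitotic than in transport kinesins, a difference given as a description with no test. RefSeq promoter windows (GRCm38.p6, 250 bases before and 50 after a transcript start) were found for 12 of 13 mitotic and 11 of 17 transport kinesins. Those without an entry were Kif20a among the mitotic and Kif5a, Kif5b, Kif13b, Kif21b, Kifc2 and Kifc3 among the transport kinesins. TTTGAA, on either strand, was present for 10 of the 12 mitotic kinesins and 1 of the 11 transport kinesins (Kif1a, in 1 of its windows), against 20.2% of all 27025 genes in the table, counted in the same way over windows of the same length (17.9% of its 32851 promoters). CCAAT, on either strand, was present for 8 of 12 mitotic and 3 of 11 transport kinesins, against 41.1% of all genes (37.4% of promoters). The E2F-type sequence TTTGGCGC was present for Kif15 and Kif18a, and for 0.585% of all genes, and the related CHR form TTTAAA for 2 of 12 mitotic and 0 of 11 transport kinesins, against 14.9% of all genes. The windows below run from 70 bases before the start to 30 after it and are written 5′ to 3′ in the direction of transcription, with TTTGAA and CCAAT on either strand in capitals (TTCAAA and ATTGG on the reverse strand). The mitotic kinesins with TTTGAA in this shorter window are Kif11 at chr19:37376312-37376411 on the plus strand, Kif15 at chr9:122951011-122951110 on the plus strand, Kif22 at chr7:127042391-127042490 on the minus strand, Kif23 at chr9:61946770-61946869 on the minus strand, Kif18b at chr11:102925095-102925194 on the minus strand, Kif20b at chr19:34922288-34922387 on the plus strand and Kif4 at chrX:100625995-100626094 on the plus strand.
Kif11: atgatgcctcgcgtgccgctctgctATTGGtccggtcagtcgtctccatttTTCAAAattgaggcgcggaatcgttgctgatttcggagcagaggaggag
Kif15: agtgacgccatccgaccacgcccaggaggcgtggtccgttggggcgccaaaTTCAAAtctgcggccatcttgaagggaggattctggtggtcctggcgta
Kif22: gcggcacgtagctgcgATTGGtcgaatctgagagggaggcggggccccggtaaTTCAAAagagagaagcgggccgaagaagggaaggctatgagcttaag
Kif23: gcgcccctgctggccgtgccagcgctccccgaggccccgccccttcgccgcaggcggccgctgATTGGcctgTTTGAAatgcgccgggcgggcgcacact
Kif18b: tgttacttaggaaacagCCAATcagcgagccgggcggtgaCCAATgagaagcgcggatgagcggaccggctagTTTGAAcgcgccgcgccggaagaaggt
Kif20b: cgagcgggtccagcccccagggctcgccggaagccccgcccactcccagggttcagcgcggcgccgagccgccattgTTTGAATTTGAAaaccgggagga
Kif4: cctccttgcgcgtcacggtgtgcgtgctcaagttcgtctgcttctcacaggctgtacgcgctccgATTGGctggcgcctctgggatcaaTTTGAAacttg

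In these 7 windows TTTGAA began between position -19 (Kif11 and Kif15) and position 20 (Kif4), counted from 1 at the first transcribed base, and Kif20b held 2 matches side by side. The 7 are 58.3% of the 12 mitotic kinesins with an entry, against 5.94% of all genes with TTTGAA in the same stretch. In the same windows CCAAT began at -45 in Kif11, at -54 in Kif22, at -53 and -30 in Kif18b, at -7 in Kif23 and at -5 in Kif4. No runs of capitals overlap. For contrast, the same stretch is given for Kif18a, a mitotic kinesin with no TTTGAA in the whole window, and for the transport kinesins Kif3a and Kif5c. These are Kif18a at chr2:109280668-109280767 on the plus strand, Kif3a at chr11:53567299-53567398 on the plus strand and Kif5c at chr2:49619216-49619315 on the plus strand.
Kif18a: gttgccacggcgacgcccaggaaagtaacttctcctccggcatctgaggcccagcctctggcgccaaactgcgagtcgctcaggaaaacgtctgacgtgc
Kif3a: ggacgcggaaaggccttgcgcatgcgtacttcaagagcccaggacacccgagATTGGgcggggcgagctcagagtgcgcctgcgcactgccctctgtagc
Kif5c: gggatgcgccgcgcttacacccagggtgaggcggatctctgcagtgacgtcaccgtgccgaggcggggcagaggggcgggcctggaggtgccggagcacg

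A match describes letters and is not a measured binding site. Among other genes of spindle and division, TTTGAA was in the window of 18 of 25 with an entry, and among DNA replication genes in that of 2 of 16. The relation of the motif to the differences between arrays was not tested.

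Between control day 4 cells and ESCs the mitotic kinesins were nearly level. Their 13 log2 differences ran from -0.65 (Kif18a) to 0.59 (Kif18b), with a median of -0.09, against 0 for all named genes, and 9 of 13 lay below 0, against 39.6% of all named genes. None of the 13 differed 2-fold, against 9.49% of all named genes higher and 10.8% lower. Kif18a alone lay outside 1 between-probe SD, on the lower side (16.7% of all named genes did). Cells of both stages divide, and the 28 measured genes of spindle and division had a median of -0.02 in this comparison. Of them 1 was at least 2-fold higher (Cdk1, the mitotic kinase, 1.72), against 9.49% of all named genes, and 0 lower, against 10.8%. The Cdk1 probe was dim, at 7.09 in ESCs and 8.81 in control day 4 cells. The 18 DNA replication genes had a median of -0.05. The ESCs had been grown on feeder cells. Of 7 measured fibroblast and feeder-type markers, 4 were at least 2-fold lower in control day 4 cells, against 10.8% of all named genes. Of the 7 markers, 1 was higher (Pdgfra). Their summed intensity was 9902.5 in control day 4 cells and 35309 in ESCs, with Dcn (-4.86), Postn (-4.52) and Col1a2 (-4.12) the lowest, and the part of feeder RNA in the comparisons with ESCs was not tested.

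At day 10 most mitotic kinesins were lower than at day 4, in both lines, by modest amounts. In knockdown cells 12 of 13 lay below 0 (49.5% of all named genes did) with a median log2 difference of -0.77, and 4 of 13 were at least 2-fold lower, against 13.3% of all named genes. In control cells 9 of 13 lay below 0 (49.4% of all named genes) with a median of -0.57, and 2 of 13 were at least 2-fold lower, against 14.4% of all named genes, a share near the background. The median of all named genes was 0 in both lines. Beyond 1 between-probe SD below 0 lay 7 of 13 in knockdown cells, against 21.5% of all named genes, and 5 of 13 in control cells, against 20.7%, so many single differences were no larger than probe error.

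Kif18a, a kinesin-8 motor that damps chromosome movements at metaphase, had a log2 level of 13.84 in ESCs, 13.35 in knockdown and 13.19 in control cells at day 4, and 12.08 in knockdown and 12.06 in control cells at day 10. Its level was lower at each later stage, and the lines lay within 0.16 of each other on both days. From day 4 to day 10 it was 2.41-fold lower in knockdown and 2.19-fold lower in control cells. Kif20b, a kinesin of cytokinesis, was at 14.59 in ESCs, 14.15 in knockdown and 14.01 in control cells at day 4, and 12.72 in knockdown and 13.11 in control cells at day 10. It followed the same downward order, with a day 10 minus day 4 difference of -1.43 in knockdown and -0.90 in control cells. Kif20a, which brings the chromosomal passenger complex to the central spindle, was at 7.98 in ESCs, 9.10 in knockdown and 8.56 in control cells at day 4, and 7.76 in knockdown and 7.50 in control cells at day 10. It was thus highest at day 4, with differences of -1.34 in knockdown and -1.06 in control cells, on a dim probe. Loess centring of the pair brought the control differences of Kif18a and Kif20a to -0.98 and -0.93, inside 2-fold.

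Kif11, the bipolar motor that pushes spindle poles apart, was at 12.56 in ESCs, 12.65 in knockdown and 12.48 in control cells at day 4, and 11.64 in knockdown and 11.70 in control cells at day 10. The day 10 arrays were the low ones, with day 10 minus day 4 differences of -1.01 in knockdown and -0.77 in control cells, and the knockdown difference came inside 2-fold with loess centring (-0.86). Kif2c, a depolymerase at centromeres, was at 13.42 in ESCs, 13.39 in knockdown and 13.40 in control cells at day 4, and 12.63 in knockdown and 12.49 in control cells at day 10. It was level up to day 4 and lower at day 10, by -0.77 in knockdown and -0.90 in control cells. The other members that keep the spindle or midzone together, Kif23 of centralspindlin, Kif15, and the chromosome-binding motors Kif4 and Kif22, had day 10 minus day 4 differences of -0.81 to -0.36 in knockdown and -0.58 to -0.27 in control cells. All 4 pointed the same way and none reached 2-fold. The second probe of Kif4 differed by -0.23 in knockdown and -0.30 in control cells.

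The remaining mitotic genes went another way in at least 1 line or lay at or near the floor. Kif18b, a kinesin-8 motor of astral microtubules, was at 7.12 in ESCs, 8.05 in knockdown and 7.71 in control cells at day 4, and 8.66 in knockdown and 8.35 in control cells at day 10. It was higher at each later stage, by 0.61 in knockdown and 0.64 in control cells from day 4 to day 10, within 1 between-probe SD and on a dim probe. Kif14, a midbody kinesin, stayed between 6.64 and 6.87 on all arrays, at or near the floor, and its other probe was at the floor throughout. Kif2b, a kinesin-13 gene known from testis, was at 7.17 in ESCs and at the floor in control cells on both days. In knockdown cells it was at 7.99 at day 4 and 7.30 at day 10, a difference of -0.69, within 1 between-probe SD. Kifc5b, a close relative of the minus-end motor gene Kifc1, differed by -0.35 in knockdown and 0.29 in control cells between the days, and its probe may also bind the RNA of that relative.

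Most other division genes were lower at day 10 as well, and DNA replication genes by more. Of 28 spindle and division genes, 7 were at least 2-fold lower in knockdown (25%, against 13.3% of all named genes) and 8 in control cells (28.6%, against 14.4%), and 0 higher, with medians of -0.40 in both. Above 0 lay 8 of 28 in knockdown and 7 of 28 in control cells, the highest of them Ccnb2, a mitotic cyclin, at 0.91 in knockdown and 0.83 in control cells, named after its values were seen. In control cells the largest of these differences were those of Cdk1 (-1.57, on a dim probe), Tpx2 (-1.55), a spindle assembly factor, Mki67 (-1.52), the proliferation marker, and Bub1 (-1.20), a checkpoint kinase. Of 18 DNA replication genes, 16 were at least 2-fold lower in knockdown and 15 in control cells, with a median of -1.57 in knockdown and -1.78 in control cells. The largest differences above the floor in knockdown cells were those of Cdc6 (-2.74), which loads the replicative helicase, Ccne2 (-2.52), Mcm5 (-2.45) and Ccne1 (-2.19). In control cells they were those of Ccne1 and Mcm5 (-3.03 each), Mcm2 (-2.46) and Ccne2 (-2.27). Mcm2 and Mcm5 are subunits of that helicase, and Ccne1 and Ccne2 are the E-type cyclins of entry into S phase. The mitotic kinesins lay near the spindle genes in these differences and closer to 0 than the replication genes, as the plot by list shows. That difference between lists was not tested. The summed intensity of 7 fibroblast markers was 248889 at day 10 and 11295 at day 4 in knockdown cells, and 240933 at day 10 and 9902.5 at day 4 in control cells. The part of such cells in the levels of division genes was not tested.

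**Figure D1:**
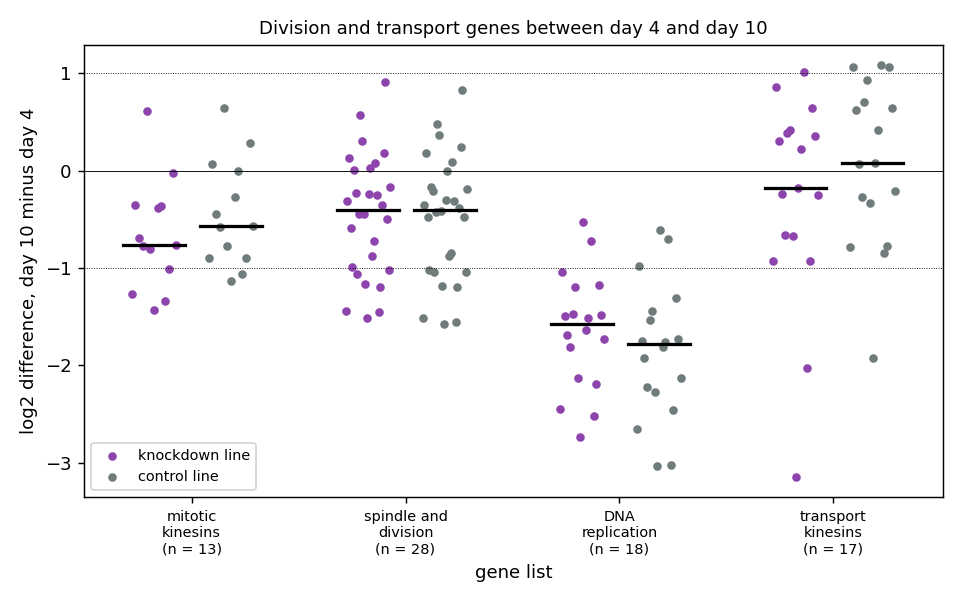
Day 10 minus day 4 log2 differences (vertical axis) of 13 mitotic kinesins, 28 spindle and division genes, 18 DNA replication genes and 17 transport kinesins, 1 point per gene, in the knockdown line (left of each pair) and the control line (right). Bars are medians and dotted lines mark 2-fold. The median of the mitotic kinesins is -0.77 in knockdown and -0.57 in control cells, and that of the replication genes -1.57 in knockdown and -1.78 in control cells.

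The transport kinesins did not move as a class over time, but single members differed strongly and in both directions. In control day 4 cells against ESCs their median log2 difference was 0.22, with 12 of 17 above 0 (49.6% of all named genes). Over all 40 kinesins 3 were at least 2-fold higher in this comparison, 7.5% against 9.49% of all named genes. These were Kif26b and the transport kinesins Kif21b and Kif3a. Only Kif17 was at least 2-fold lower, against 10.8% of all named genes. In control day 10 against day 4 cells the transport median was 0.08, with 10 of 17 above 0 (40.4% of all named genes), but it was -0.73 in values as deposited, where all named genes had a median of -0.72. At least 2-fold higher were 3 of 17 (Kif3c, Kif13a and Kif17), against 14.2% of all named genes, and 1 of 17, Kif5c, was lower, against 14.4%. In knockdown day 10 against day 4 cells the transport median was -0.17, but 0.02 with loess centring, with 8 of 17 above 0 (40.1% of all named genes). At least 2-fold higher was 1 of 17 (Kif13a), against 14.1% of all named genes, and 2 of 17 (Kif5c and Kif1a) were lower, against 13.3%. These shares lie near or below the background.

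The 3 heavy chains of conventional kinesin, the main motor of long-range transport, had unlike courses. Kif5c, the neuron-enriched heavy chain, was at 11.90 in ESCs, 12.93 in knockdown and 12.24 in control cells at day 4, and 9.78 in knockdown and 10.31 in control cells at day 10. It was highest at day 4 and lowest at day 10 in both lines, 8.84-fold lower at day 10 than at day 4 in knockdown and 3.80-fold lower in control cells. These were the lowest day 10 minus day 4 differences of all 40 kinesins. Kif5a, the other neuron-enriched chain, was at 10.35 in ESCs, 10.21 in knockdown and 10.14 in control cells at day 4, and 9.28 in knockdown and 9.36 in control cells at day 10. Its day 10 minus day 4 difference was -0.93 in knockdown and -0.77 in control cells, and its second probe showed -2.22 in knockdown and -1.85 in control cells. That second probe also differed by -1.88 between control day 4 and ESCs, against -0.22 on the brightest probe, so the size is uncertain while the sign was shared. Kif5b, the chain used in all cells, was at 14.91 in ESCs, 14.64 in knockdown and 14.69 in control cells at day 4, and 13.98 in knockdown and 14.42 in control cells at day 10. On this probe its time differences stayed within 1 between-probe SD, but its second probe differed by -1.27 in knockdown and -0.69 in control cells between day 4 and day 10, past 2-fold in knockdown cells.

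Kinesin-3 motors carry vesicles and organelles. Kif1a, which moves synaptic vesicle precursors, was at 11.85 in ESCs, 12.12 in knockdown and 11.97 in control cells at day 4, and 10.10 in knockdown and 11.19 in control cells at day 10. The knockdown day 10 array was the low one, 4.07-fold below knockdown day 4, while control day 10 lay 1.73-fold below control day 4. On its dimmer probe both day 10 arrays were low, with day 10 minus day 4 differences of -1.52 in knockdown, a bound since that day 10 array was at the floor, and -1.26 in control cells, so the size of the gap between the lines rests on the brightest probe. Kif13a, a carrier of endosomal cargo, was at 9.72 in ESCs, 10.49 in knockdown and 10.29 in control cells at day 4, and 11.51 in knockdown and 11.36 in control cells at day 10. It was higher at each later stage in both lines, by 1.01 in knockdown and 1.07 in control cells from day 4 to day 10, and by 0.69 in knockdown and 0.39 in control cells in values as deposited. Kif1b, which moves mitochondria and vesicle precursors, was level up to day 4 (13.27 in ESCs, 13.28 in knockdown and 13.31 in control cells) and stood at 13.66 in knockdown and 14.24 in control cells at day 10. Its day 10 minus day 4 difference was 0.39 in knockdown and 0.93 in control cells, and its second probe gave -0.38 in knockdown and 0.23 in control cells. Kif1c, Kif16b and Kif13b showed day 10 minus day 4 differences within 1 between-probe SD in both lines.

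Kinesin-2 motors drive transport into the cilium and in the cytoplasm. Kif3a, the motor subunit shared by the heterotrimeric complexes, was at 11.57 in ESCs, 12.68 in knockdown and 12.69 in control cells at day 4, and 12.98 in knockdown and 13.40 in control cells at day 10. It was higher in differentiated cells of both lines than in ESCs, 2.17-fold in control day 4 cells. Kif3c, which can replace Kif3b as its partner, was at 7.69 in ESCs, 8.87 in knockdown and 8.45 in control cells at day 4, and 9.23 in knockdown and 9.54 in control cells at day 10. It was also lowest in ESCs, and its day 10 minus day 4 difference was 0.36 in knockdown and 1.09 in control cells, the second of these 0.88 with scaling to the 75th percentile and 0.18 in values as deposited. Kif3b and the accessory subunit gene Kifap3 moved little, with all 5 differences of each between -0.33 and 0.41. Kif17, a homodimeric kinesin-2 of dendrites and cilia, was at 8.0 in ESCs, 6.68 in knockdown cells at day 4, the floor in control cells at day 4, and 7.54 in knockdown and 7.71 in control cells at day 10. The day 4 arrays were the low ones, at least 2.55-fold below ESCs in control cells, but with a floor of 200 that difference was -0.35. Control day 10 cells differed from control day 4 cells by 1.06 on this floored scale, but by 0.75 with scaling to the 75th percentile, 0.23 in values as deposited and 0.06 with a floor of 200.

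The 18 measured genes of intraflagellar transport, the cargo trains of kinesin-2 in the cilium, had medians of 0.26 in control day 4 cells against ESCs, 0.47 in knockdown and 0.35 in control cells at day 10 against day 4. At day 10, 3 of them were at least 2-fold higher in knockdown (16.7%, against 14.1% of all named genes) and 2 in control cells (11.1%, against 14.2%), shares near the background, and 0 were lower. Ift52 differed most in control cells (1.53). Of 12 measured motile cilium markers, the dynein heavy chain genes Dnah9 and Dnah5 were at the floor on both day 10 arrays and Dnah11 on that of knockdown cells, while the other 9 were above it on both arrays. The 12 markers' summed intensity was 8614.8 in knockdown and 8070.5 in control cells at day 10, against 21913 in ESCs. Kif6, which acts in motile cilia, was at the floor on all 5 arrays, and Kif19a, which limits the length of motile cilia, on 4 of them.

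Among kinesins of the cilium and its signalling, Kif7, the Hedgehog regulator at the cilium tip, was at 11.56 in ESCs, 12.32 in knockdown and 12.18 in control cells at day 4, and 11.19 in knockdown and 11.00 in control cells at day 10. It was highest at day 4 in both lines and 2.19-fold lower at day 10 than at day 4 in knockdown and 2.27-fold lower in control cells. The second probe showed -0.44 in knockdown and -0.72 in control cells, and with loess centring the brightest probe gave -0.97 in knockdown and -0.98 in control cells, inside 2-fold. Kif24, which restrains the formation of cilia, was at 10.08 in ESCs, 10.51 in knockdown and 10.53 in control cells at day 4, and 9.71 in knockdown and 9.60 in control cells at day 10. It showed the same peak at day 4, with day 10 minus day 4 differences of -0.80 in knockdown and -0.93 in control cells. Kif27, a relative of Kif7, stayed within 10.11 to 10.34 on all arrays. Kif9, known from motile cilia, was higher at day 10 than at day 4 by 0.57 in knockdown and 0.49 in control cells, within 1 between-probe SD. Its second probe had the opposite sign, with -0.13 in knockdown and -0.01 in control cells.

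The largest difference of any kinesin between control day 4 cells and ESCs was that of Kif26b, an atypical kinesin known from kidney mesenchyme and Wnt5a signalling. Its log2 level was 7.99 in ESCs, 11.45 in knockdown and 10.84 in control cells at day 4, and 11.87 in knockdown and 12.03 in control cells at day 10. ESCs were far below all 4 differentiated arrays, and control day 4 cells were 7.18-fold higher than ESCs. Control day 10 cells were 2.28-fold above control day 4 cells, a log2 difference of 1.19 that was 0.51 in values as deposited. Its relative Kif26a was at 11.45 in ESCs, 10.99 in knockdown and 11.51 in control cells at day 4, and 11.83 in knockdown and 12.16 in control cells at day 10, a much narrower range. Kif21b, a kinesin-4 motor that limits microtubule growth, was at 12.17 in ESCs, 14.40 in knockdown and 13.77 in control cells at day 4, and 13.48 in knockdown and 13.84 in control cells at day 10. ESCs were again lowest, 3.03-fold below control day 4 cells. The related Kif21a was at 9.96 in ESCs, 10.11 in knockdown and 10.68 in control cells at day 4, and 9.94 in knockdown and 10.47 in control cells at day 10, lower in knockdown on both days.

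Kif2a, a microtubule depolymerase of spindle poles and of axon branches, peaked at day 4. It was at 12.16 in ESCs, 13.34 in knockdown and 13.06 in control cells at day 4, and 11.91 in knockdown and 11.66 in control cells at day 10. From day 4 to day 10 it was 2.69-fold lower in knockdown and 2.63-fold lower in control cells, nearly the same in both lines. Kif12, known from kidney and bile duct epithelium, was at 7.19 in ESCs, 7.50 in knockdown and 8.13 in control cells at day 4, and 7.80 in knockdown and 8.22 in control cells at day 10. Control cells were the higher on both days, beside the higher liver-type markers there, and the part of these cells in that difference was not tested. The minus-end motor genes Kifc2 and Kifc3 differed in opposite directions between day 4 and day 10, Kifc2 by -0.66 in knockdown and -0.84 in control cells and Kifc3 by 0.65 in knockdown and 0.41 in control cells.

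**Figure D2:**
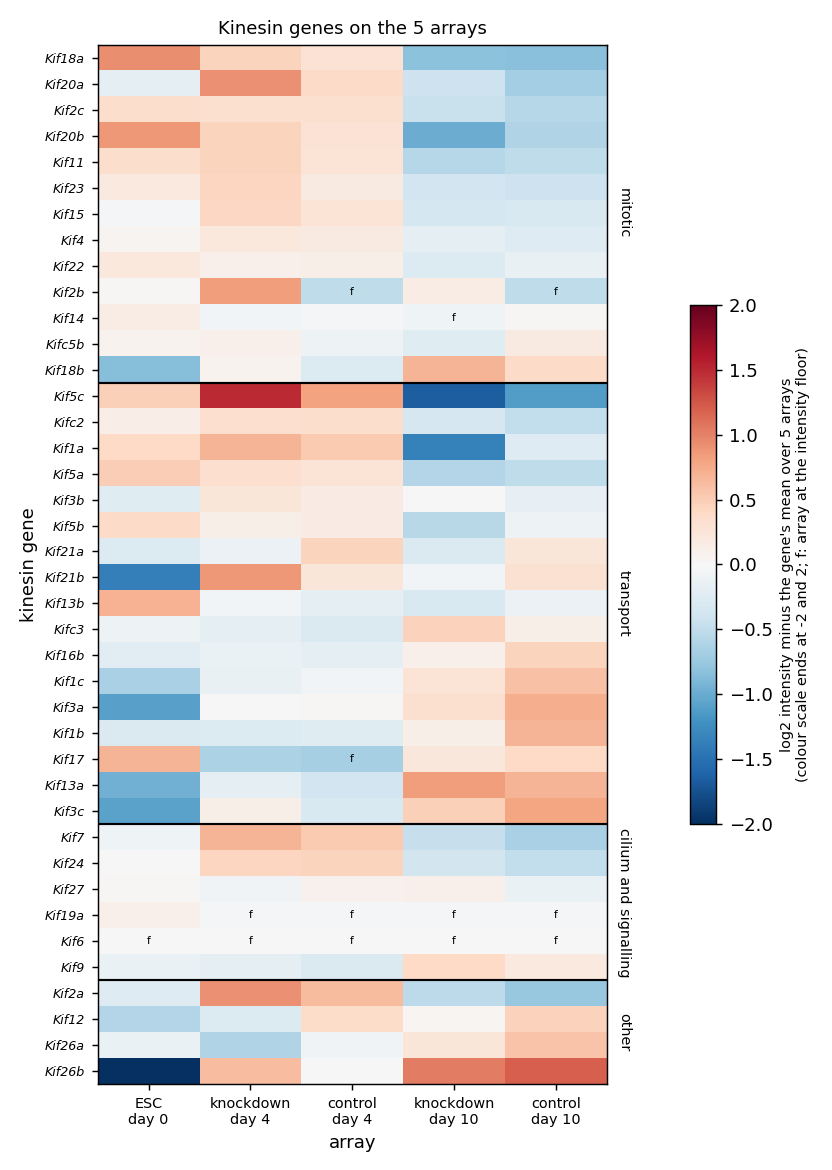
Log2 intensity of the 40 kinesin genes (rows, grouped by role) on the 5 arrays (columns) as the difference from each gene's mean over the arrays, in colour from -2 to 2, with f for an array at the floor. Most mitotic kinesins are blue on the day 10 arrays, while transport kinesins differ from gene to gene, with Kif5c among those low at day 10 and Kif3a, Kif3c and Kif13a among those low in ESCs.

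**Figure D3:**
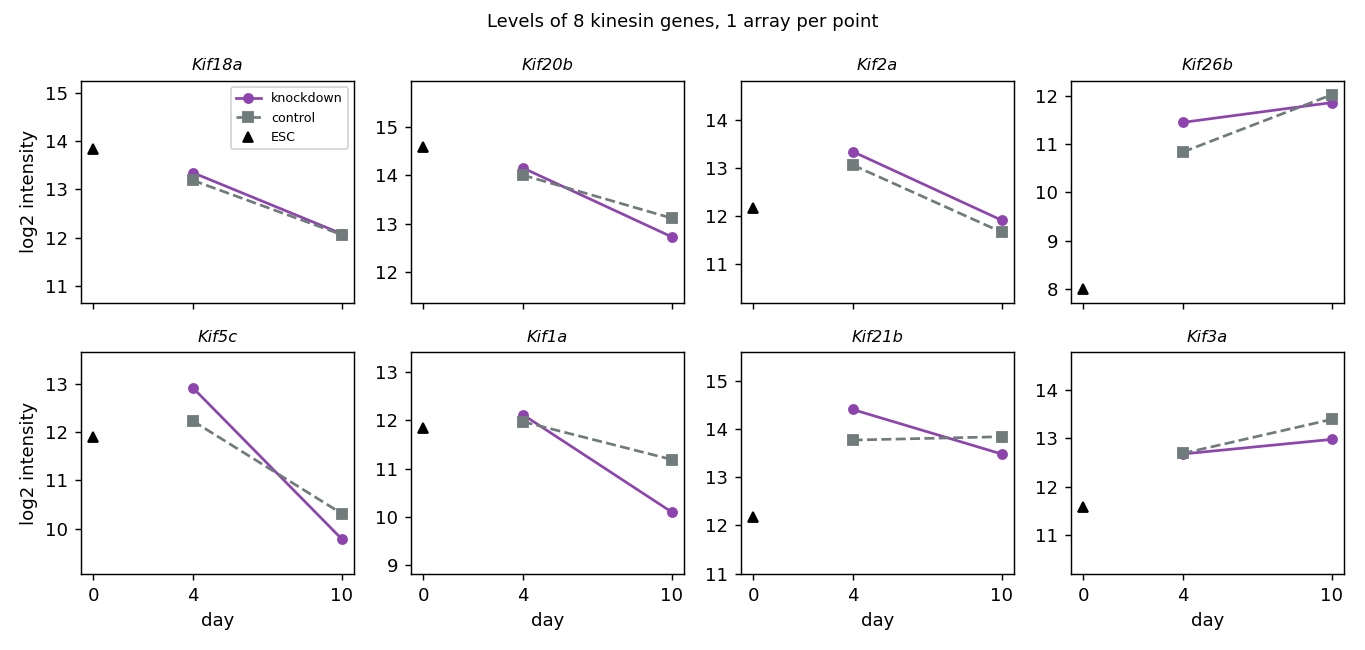
Log2 intensity (vertical axis, the same span in each panel) of 8 kinesin genes by day of differentiation (horizontal axis), for knockdown (purple circles), control (grey squares) and ESCs (black triangle), with 1 array per point and no error bars. Kif18a and Kif2a run together in both lines, Kif26b and Kif21b are lowest in ESCs, and Kif1a at day 10 stands at 10.10 in knockdown and 11.19 in control cells.

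Over all 40 kinesins, 8 were at least 2-fold lower (20%, against 13.3% of all named genes) and 1 higher (2.5%, against 14.1%) at day 10 than at day 4 in the knockdown line. In the control line 5 were lower (12.5%, against 14.4%) and 4 higher (10%, against 14.2%), at or below the background. In values as deposited, without normalization between arrays, the split was 18 lower and 0 higher in knockdown and 19 and 0 in control cells. In those values 34.0% of all named genes were lower and 8.56% higher in knockdown, and 40.2% lower and 6.92% higher in control cells. The median of all named genes was itself at -0.58 in knockdown and -0.72 in control cells. The courses of the lines share no array. Over the 38 kinesins above the floor on some array of these days, 32 (84.2%) differed in the same direction in both lines and 6 (15.8%) were at least 2-fold apart in both, with Pearson r of 0.89 and Spearman rho of 0.90 across genes. Of the 16122 named genes chosen in the same way, 84.2% differed in the same direction and 23.2% were at least 2-fold apart in both, with Pearson r of 0.89 and Spearman rho of 0.87. Genes are not independent replicates.

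**Figure D4:**
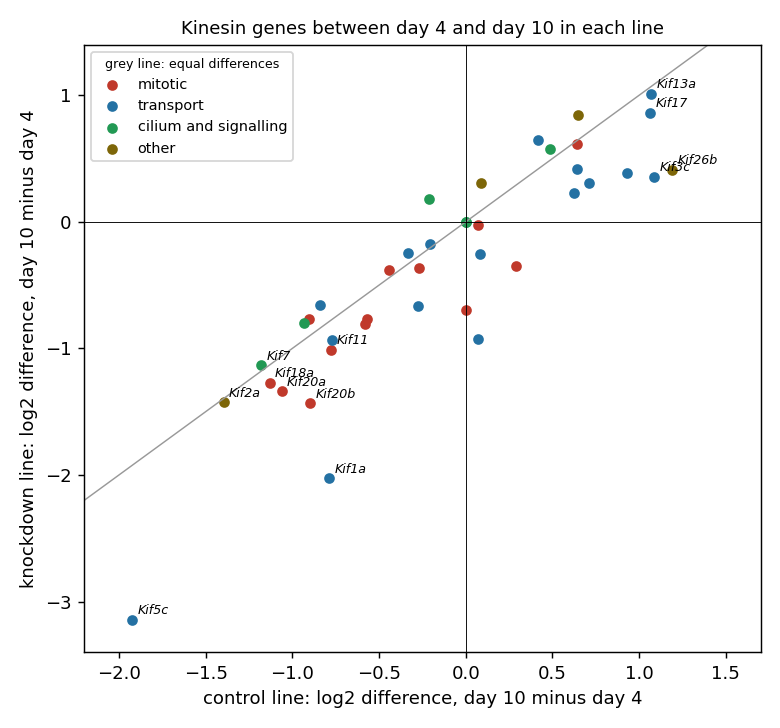
Day 10 minus day 4 log2 difference of each of the 40 kinesin genes in the knockdown line (vertical axis) against the control line (horizontal axis), coloured by role, with the line of equal differences. Genes at least 2-fold apart in either line are named, and Kif5c and Kif1a lie furthest below the line of equal differences.

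The comparison of knockdown with control cells at day 4 asked whether loss of Linc1405 went with other levels of these motors in mesoderm. Kinesins were close to level. Of 40, 1 was at least 2-fold higher (2.5%, against 0.721% of all named genes) and 0 lower (against 1.35%). The 1 was Kif2b, at 7.99 in knockdown and the floor in control cells, at least 2.54-fold, and with a floor of 200 its difference was 0.35. The mitotic kinesins had a median of 0.16 with 10 of 13 above 0, against 46.8% of all named genes. Above the between-probe SD of 0.24 lay 4 of 13, against 12.6% of all named genes: Kif2b, Kif20a (0.54), Kif18b (0.34) and Kif23 (0.25). As far below 0 lay 0 of 13, against 11.9%. Spindle and division genes had a median of -0.02 and replication genes of 0.01. The transport kinesins had a median of 0.07 with 11 of 17 above 0 and 6 of 17 below it, against 40.7% of all named genes.

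Further members lay beyond 1 between-probe SD at day 4, all inside 2-fold. Kif5c was 1.61-fold and Kif21b 1.55-fold higher in knockdown cells, and Kif3c differed by 0.42. Kif26b differed by 0.62 and Kif2a by 0.28. On the other side Kif12 differed by -0.64, Kif21a by -0.57 and Kif26a by -0.53. With the 4 mitotic genes above, 9 of 40 kinesins lay above 1 between-probe SD, against 12.6% of all named genes, and 3 of 40 lay as far below 0, against 11.9%. Of 10 kinesins with 2 probes, 6 had the same sign on both in this comparison.

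At day 10 the transport kinesins were mostly lower in knockdown than in control cells, by small amounts. Their median log2 difference was -0.31, with 13 of 17 below 0, against 42.2% of all named genes and a median of 0, but the transport median was 0.10 in values as deposited, where all named genes had a median of 0.37. Beyond 1 between-probe SD (0.30) below 0 lay 10 of 17, against 15.8% of all named genes, and 1 of 17, Kifc3 (0.34), lay above it, against 16.8%. The mitotic kinesins had a median of 0.02, with 7 of 13 above 0, against 45.9% of all named genes. Beyond 1 between-probe SD lay 2 of 13 above 0 and 2 of 13 below it. Kif2b had the highest difference of all 40 kinesins, at least 0.65, with control cells at the floor. Of all 40 kinesins, 1 was at least 2-fold lower (2.5%, against 2.70% of all named genes) and 0 higher (against 2.0%), so the count past 2-fold lay at the background.

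Kif1a was that gene, at 10.10 in knockdown and 11.19 in control cells, 2.13-fold lower in knockdown. Its dimmer probe, at the floor in knockdown cells, differed by -0.17, the mean of the probes gave -0.63, and the values as deposited gave -0.70. Kif1b differed by -0.57, with -0.70 on its second probe. Both genes belong to the kinesin-3 motors of vesicle and mitochondrial transport. Kif5b differed by -0.44 and by -0.95 on its second probe, and Kif5c by -0.53. Kif21a (-0.53), Kif3a (-0.42), Kif21b (-0.36) and Kif16b (-0.34) pointed the same way, as did Kif1c and Kif3c (-0.31 each). The members that stood against them were Kifc3, Kifc2 (0.16), Kif3b (0.16) and Kif13a (0.14), and the second probe of Kif3b differed by -0.25. Relative to the median of all named genes, the transport median in deposited values was -0.26.

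Marker genes of several cell types differed between the day 10 arrays in the same comparison. Of 6 cardiomyocyte markers 5 were at least 2-fold lower in knockdown cells and 1, Tnnt2, higher. All 6 liver-type markers were lower and all 5 epicardial markers higher, each at least 2-fold. Past 2-fold lay 2.70% of all named genes on the lower side and 2.0% on the higher side. Neurons are the cells in which Kif1a and Kif5c are best known. Of 9 measured neuron markers 1 was at least 2-fold higher in knockdown cells (Stmn2, 1.68) and 0 lower, with a median of 0.02. Beyond 1 between-probe SD lay 2 above 0, Stmn2 and Gap43 (0.34), and 2 below it, Snap25 (-0.63) and Nefl (-0.36). The shares of all named genes beyond that SD were 16.8% above and 15.8% below. The summed intensity of the 9 neuron markers was 18688 in knockdown and 13971 in control cells. The part of these cell types in the kinesin differences was not tested. Genes of kinesin partners, such as light chains and cargo adaptors, had a median of -0.04 over 19 measured, with 1 at least 2-fold higher (Mapk8ip1, a scaffold that binds kinesin light chains, 1.36) and 0 lower. The 9 measured genes of the dynein pathway, which serves transport the other way, were 5 dynactin subunits and 4 adaptors or regulators, with no dynein subunit among them, and had a median of -0.05 with 0 at least 2-fold apart. DNA replication genes had a median of 0.21 and spindle genes of -0.03.

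**Figure D5:**
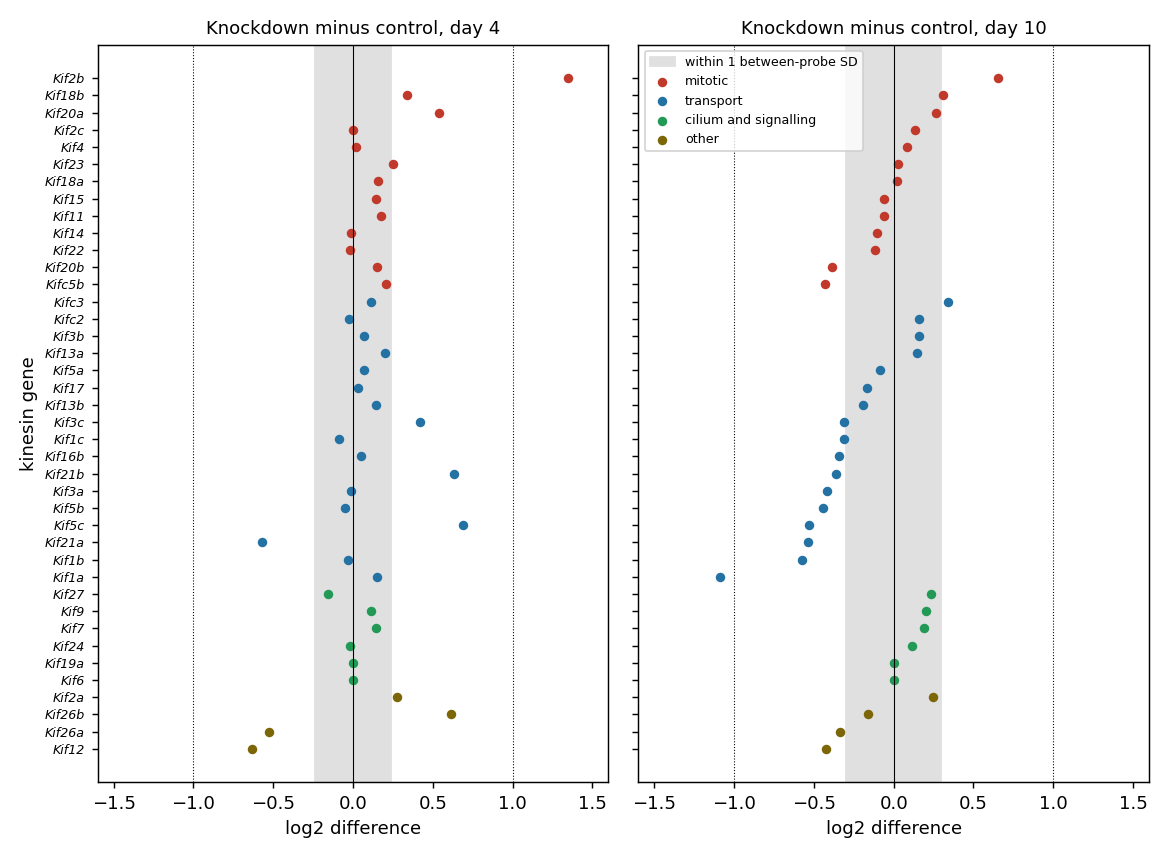
Knockdown minus control log2 difference (horizontal axes) of the 40 kinesin genes (rows, coloured by role) at day 4 (left) and day 10 (right), with the between-probe SD in grey and dotted lines at 2-fold. At day 10, 13 of 17 transport kinesins lie below 0 (median -0.31, and 0.10 in values as deposited), and Kif1a alone passes 2-fold on that side.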

How the data were processed

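Total RNA of 5 mouse cultures was measured on single-colour arrays, 1 per group, with groups taken from the labels. The authors deposited 1 linear intensity per probe and array. Agilent Feature Extraction 10.7.1.1 appears in the submitters' processing notes, and a normalization between arrays is not stated there. Of 26423 probes, 1050 were at or below 0 on the knockdown day 10 array and 3 on the control day 10 array. On the other arrays 0 to 38 were. Array medians ran from 344 to 745, so the arrays had no common scale. All 5 arrays were brought to 1 distribution by quantile normalization, values under 100 were raised to 100, and log2 was taken (Python 3.11.15, NumPy 2.4.6, pandas 2.3.3). The floor took 19.0 to 19.1% of probes on each array. Of the kinesins, 35 were above it on all arrays.

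Symbols were updated through the gene table of GRCm38.p6, 18213 probes by symbol and 2126 by synonym, and 6046 probes were unnamed here. No filter on level was applied, and all 40 kinesins entered every count. A gene counted as called at a 2-fold difference between 2 arrays, beside the share of all 17742 named genes. The between-probe SD was the root mean square gap between the differences of a gene's 2 probes, both above the floor, divided by the square root of 2, over 1512 to 1588 genes. It covers probe error and not the spread of cultures. Counting was tested on simulated data with changes larger than 2-fold in probes that were not dim. That run therefore does not bear on differences near 2-fold or on dim probes. Alternatives were the values as deposited, scaling to a common 75th percentile, loess centring (statsmodels 0.14.6, span 0.3), floors of 50 and 200, the mean of a gene's probes and a filter at the median level. Centring the deposited values on the median of all named genes was added after seeing the data. The members, role classes and lists were chosen with earlier results of these data known. Values in all arrays are given for kinesins at least 2-fold apart in any comparison, and for some other members. Of other lists up to 4 genes with the largest difference above the floor are named. Motifs were searched by exact letters in RefSeq promoter windows. Linc1405 was not analysed here.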

Additional observations from a re-analysis of the deposited data

Results flagged for a closer look

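For 3 of 40 kinesins, all transport kinesins, the knockdown minus control difference had opposite signs on the 2 days and exceeded 1 between-probe SD on both. The share of all named genes that meet this rule was not counted, so 3 of 40 has no background beside it. Of all named genes, 12.6% lay above 1 between-probe SD at day 4 and 15.8% below it at day 10. Kif5c differed by 0.69 at day 4 and -0.53 at day 10, a gap of -1.22 between the days. Kif21b differed by 0.64 at day 4 and -0.36 at day 10, a gap of -0.995. Kif3c differed by 0.42 at day 4 and -0.31 at day 10, a gap of -0.73, on a dim probe. With 1 array per group, the difference between the days was not tested for any of them.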

How the results depend on the processing

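The median of the mitotic kinesins between day 4 and day 10 stayed below 0 under all alternatives, from -1.24 to -0.65 in knockdown and from -1.34 (values as deposited) to -0.45 in control cells. Without normalization between arrays all genes shifted, with medians of all named genes of 0.20 and 0.37 for knockdown minus control at day 4 and day 10, 0.17 for control day 4 minus ESCs, and -0.58 and -0.72 for day 10 minus day 4 in knockdown and control cells. In those values the transport median turned to -0.73 for control day 10 minus day 4 and to 0.10 for knockdown minus control at day 10, where the mitotic median was 0.47. Counts of kinesins at least 2-fold apart are given beside the share of all named genes under the same setting, in parentheses. In the values as deposited they became 19 lower (40.2%) and 0 higher (6.92%) in the control course. In the knockdown course they became 18 lower (34.0%) and 0 higher (8.56%). For knockdown minus control at day 10, 0 were lower (1.17%). The deposited values were also centred on the median of all named genes, a setting chosen after seeing the data. They then gave 2 higher in the control (13.1%) and knockdown course (14.8%) each, and 2 lower in control day 4 minus ESCs (10.9%). Scaling to the 75th percentile gave 2 higher in the control course (12.8%) and 3 lower in control day 4 minus ESCs (13.1%). Loess centring gave 2 lower in the control course (10.9%) and 2 higher in the knockdown course (16.2%). With a floor of 50, 2 were lower in control day 4 minus ESCs (11.4%) and 1 was higher in knockdown minus control at day 10 (2.24%). With a floor of 200 or the filter on level, 0 were lower in control day 4 minus ESCs (9.62% and 9.53%). With either, 0 were higher in knockdown minus control at day 4 (0.552% in both). The filter left 26 kinesins, with 2 higher in the control course (16.1%). With the mean of probes, 2 were lower in control day 4 minus ESCs and 0 in knockdown minus control at day 10. The cause of these changes was not tested. No paired analysis was possible because each group held 1 array, and leaving out a replicate was not possible either. Depth in an array is signal over background, and detection calls were not used here, so dim genes such as Kif2b, Kif14, Kif17 and Kif18b are the least certain.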
